A study of Mus musculus with 4 samples.

Results

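The comparison described here sets embryoid bodies after 48 h of hypoxia against embryoid bodies after 16 h of hypoxia. Embryoid bodies are spheres of differentiating cells, grown here from R1, a mouse embryonic stem cell line. The 16 h group (Hx8) had 7.33 d in normoxia and then 16 h in hypoxia, and the 48 h group (Hx10) had 8 d in normoxia and then 48 h in hypoxia, so the cultures were 8 and 10 days old when they were dissociated. Each group was 1 library of single cells (10x Genomics 3′ v3.1), in which each RNA molecule is counted once through its unique molecular identifier (UMI). A barcode was taken as a cell when it had 500 or more genes and no more than 15% of UMIs from mitochondrially encoded genes. This kept 3345 of 3489 barcodes after 16 h and 4616 of 4746 after 48 h, or 7961 of the 13808 cells kept in all 4 libraries. Of the barcodes left out, 102 and 114 had too few genes and 111 and 28 too large a mitochondrial share, some of them both. Libraries of 8 d in normoxia (Nx8, 3168 cells) and 10 d in normoxia (Nx10, 2679 cells) give the level without hypoxia and the difference that 2 days of age makes. No source used here states the oxygen level, and cells of the R1 line stand for no other line.

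Cells short of oxygen stabilize the HIF transcription factors, because the prolyl hydroxylases that mark their alpha subunits for destruction need oxygen. HIF turns on genes of glucose uptake, glycolysis, blood vessel growth and the removal of mitochondria, and among its targets are those same hydroxylases, which form a feedback loop. When oxygen stays low, cells also slow protein synthesis and division and can activate ATF4, a transcription factor of the integrated stress response.

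With 1 library per group, no difference below has a replicate check and no test or p-value was computed. Library, duration of hypoxia and the 2 days of age cannot be told apart, and the normoxic pair is set beside the main values. Levels are counts per 1000000 UMIs of the library (CPM), summed over its cells. Differences are log2 ratios of CPM + 1, 48 h over 16 h, and intervals on them are at 95% and cover counting error only. Only genes whose CPM averaged 10 or more across all 4 libraries, 8806 in number, were given a ratio.

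The 48 h library stood apart from the other libraries in its depth and composition. It held a median of 12802 UMIs and 3149.5 genes per cell, against 18839 UMIs and 4660 genes after 16 h and 20332 to 23057.5 UMIs in the normoxic libraries. Ribosomal protein genes took 29.3% of its UMIs, against 19.7% after 16 h and 18.3% and 20.7% in normoxia at day 8 and day 10. These shares enter the total to which CPM is scaled, and the median log2 ratio of all genes was -0.38. Scaling by TMM, which sets the bulk of genes equal, shifted every ratio by about 0.38, so a value between -0.38 and 0 changes its sign there and is called neither higher nor lower below. The 2 hypoxic libraries shared 3 barcodes.

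Of the 8806 genes, 353 (4.01%) were at least 2-fold higher after 48 h and 1928 (21.9%) at least 2-fold lower. Higher genes were thus 15.5% of the differing genes by CPM, but 45.1% by TMM, where 850 were higher and 1036 lower. Between the normoxic libraries 250 genes (2.84%) were at least 2-fold higher at day 10 and 177 (2.01%) lower. Of the 353 genes higher after 48 h, 62 (17.6%) were also among the 250 higher at day 10 in normoxia, of which they were 24.8%. Of the 1928 lower genes, 107 (5.55%) were among the 177 lower with age in normoxia, 60.5% of that list. Across the 8806 genes, which are not independent replicates, the ratio in hypoxia and the ratio in normoxia had a Pearson r of 0.35 and a Spearman rho of 0.34. These comparisons share no library.

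The 20 highest ratios, leaving out predicted, ribosomal and mitochondrial gene names, included genes of solute transport, stress and growth control. Slc5a3, the sodium-coupled myo-inositol transporter, was at 12.1 CPM after 16 h (exact Poisson interval 11.4 to 12.9) and 177 CPM after 48 h (174 to 180), with 11.1 and 15.1 CPM in normoxia at day 8 and day 10. Only the 48 h library was high. Its log2 ratio was 3.76 against 0.41 in normoxia. Slc5a3 (chr16:92058322-92087473, plus strand, mm10) lies inside the span of Mrps6 (chr16:92058270-92112227, same strand), a mitochondrial ribosomal protein gene at 52.2 and 314 CPM (56.7 and 49.7 CPM in normoxia), and their reads may have been divided between them. Nupr1, a small stress-induced nuclear protein, was at 42.1 and 368 CPM after 16 h and 48 h, against 24.3 and 59.4 CPM in normoxia. Ptx3, a secreted pattern recognition protein, was at 2.55 and 33.2 CPM after 16 h and 48 h, against 1.64 and 5.62 CPM in normoxia. For both genes the 48 h library stood above the other libraries, and normoxia at day 10 above normoxia at day 8. Among the 20, Ptx3, Tnfrsf23, Hspa4l, Hist1h2ac and Lncpint were below 10 CPM in each other library. They passed the filter through the 48 h library alone. Bcl6, Rasl11a and Afap1l2 were below 10 CPM in normoxia at day 8 and after 16 h, and at 18.4, 18.7 and 14.3 CPM in normoxia at day 10. Without the 48 h library these too averaged below 10 CPM. The high ratios of all these genes follow in part from the filter.

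Others among the 20 highest had a large difference with age as well. Bcl6, a transcriptional repressor, had a log2 ratio of 2.87 in hypoxia and 1.89 in normoxia. Igfbp7, a secreted binding protein, had 2.83 and 1.80, and Cebpb, a transcription factor of the C/EBP family, 2.53 and 1.73. By contrast, Hspa4l, an Hsp110-type chaperone, was at 7.89 CPM both in normoxia at day 8 and after 16 h, 7.49 CPM in normoxia at day 10 and 60 CPM after 48 h. Tnfrsf23, a TRAIL decoy receptor, had a log2 ratio of 3.51 in hypoxia and 0.24 in normoxia. Id3, an inhibitor of differentiation, had 2.45 and 0.92. In Hist1h4i and Hist1h2ac, histone genes with near-identical copies whose reads are uncertain, the ratios were 2.72 and 2.73. Among the remaining members of the 20, Ampd3, Snhg12, Dusp1, Afap1l2, Mrps6, Rasl11a, Lncpint and Epha2, lay between 2.37 and 2.82.

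**Figure D1:**
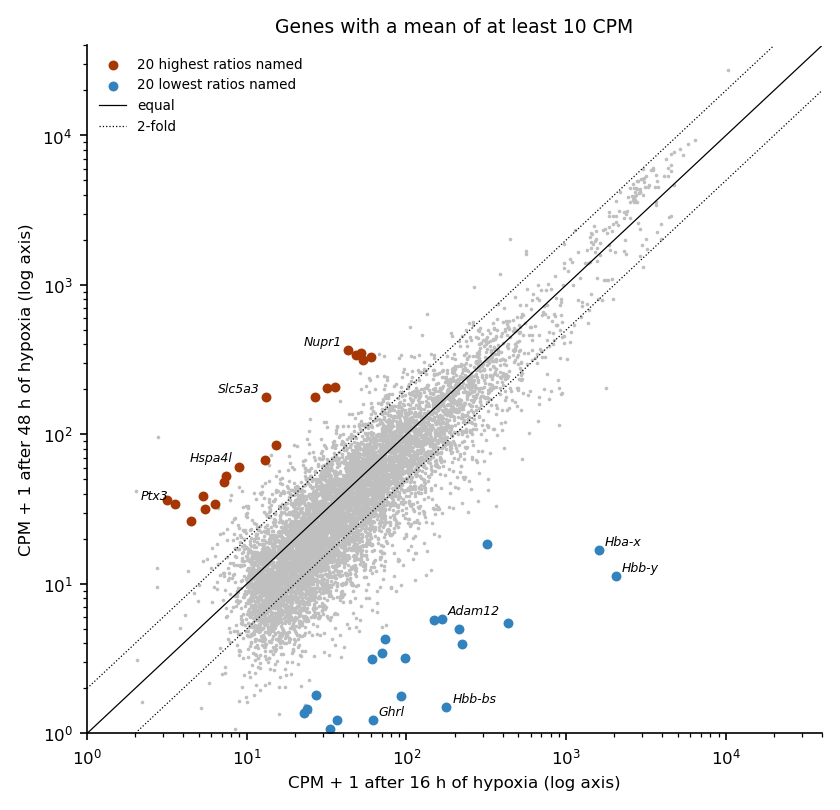
Level of each of the 8806 genes after 16 h (x axis) and 48 h (y axis) of hypoxia, as CPM + 1 on log axes, with the line of equality and lines of 2-fold difference. The 20 highest and 20 lowest ratios are coloured: Slc5a3 and Nupr1 stand above the diagonal, and globin genes such as Hbb-y and long genes such as Adam12 below it.

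Among the 20 lowest ratios, globin genes had the lowest, followed by gut endoderm genes and long adhesion and channel genes. Hbb-y, an embryonic beta-like globin, was at 2036 CPM after 16 h and 10.2 CPM after 48 h, against 1955 and 230 CPM in normoxia. The 6 globin genes had log2 ratios of -7.50 to -5.70, and reads of their close copies are uncertain. Erythroid-like cells were 152 of 3345 after 16 h and 11 of 4616 after 48 h, and 110 of 3168 and 11 of 2679 in normoxia. Alas2, the first enzyme of haem synthesis in red cells, had -4.04, and -2.24 with age in normoxia. Ghrl, Pyy, Nepn and Spink1, genes of gut endoderm, had -5.64 to -4.10 in hypoxia and were lower with age in normoxia too, at -2.95, -3.42, -3.86 and -3.41 in that order. Endoderm-like cells were 194 and 61 of the cells after 16 h and 48 h, and 243 and 67 in normoxia at day 8 and day 10. Within endoderm-like cells Ghrl was at 948 and 16.1 CPM after 16 h and 48 h, and Pyy at 554 and 17.3 CPM. Nepn was at 499 and 2.47 CPM there, and Spink1 at 1128 and 304 CPM. The values after 48 h rest on 13, 14, 2 and 246 UMIs in that order. The part of cell number in the library sums was not tested, and in such sums fewer cells of a type cannot be told apart from less RNA per cell.

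A further group of the lowest genes has long spans in the annotation. Adam12, a membrane-bound metalloprotease, was at 165 CPM after 16 h (exact Poisson interval 162 to 168) and 4.803 CPM after 48 h (4.33 to 5.32), against 261 and 259 CPM in normoxia. Nrxn3, a neurexin, was at 211 and 4.02 CPM after 16 h and 48 h, against 195 and 118 CPM in normoxia. Nhs, the Nance-Horan syndrome gene, was at 317 and 17.6 CPM, against 343 and 368 CPM. In each of these genes the 48 h library was far below the other libraries. Negr1 and Tenm2, of neuronal adhesion, the retrotransposon-derived Rtl4 and the potassium channel Kcnb2 had log2 ratios of -4.34, -4.69, -4.29 and -4.06, against -0.38, -2.14, 0.29 and 0.18 in normoxia. Hsd11b2, which inactivates glucocorticoids, is short and had -4.93 against -0.92.

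Targets of HIF outside glycolysis were more often lower than higher after 48 h, in a share near that of all genes. Of the 60 genes of the list, 48 passed the filter, and the 12 that did not, among them Car9, Epo and Stc1, are not ranked. Of the 48, 6 were at least 1.5-fold higher, where 10.1% of all genes tested were, and 22 at least 1.5-fold lower, where 39.9% were. That makes 12.5% and 45.8% of the list. The remaining 20 lay within 1.5-fold. The median log2 ratio was -0.38 (order statistics interval over members -0.94 to -0.01), equal to the median of all genes, and 0.01 by TMM. In normoxia the same list had a median of 0.13 with age. Taking the normoxic ratio from the hypoxic one left 4 members higher by 1.5-fold or more and 23 lower, where 9.45% and 35.3% of all genes were, and a median of -0.54.

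By CPM, the levels stayed above normoxia for most of these targets. In 39 of the 48 genes both hypoxic libraries were above the normoxic library of their age, and in 7 only the 16 h library was, namely Gbe1, Gys1, Loxl2, Mt1, Plod1, Rora and Tfrc. With levels scaled by TMM, an alternative chosen after seeing the data, these counts were 42 and 5, and Gbe1, Gys1 and Plod1 were no longer among the latter while Mt2 was. Summed over the list, HIF targets took 1.25% of UMIs after 16 h and 0.947% after 48 h, against 0.447% and 0.422% in normoxia. By CPM the median log2 ratio of the list against normoxia of the same age was 1.76 after 16 h and 1.18 after 48 h. All genes tested had -0.10 and -0.41, and the share of all genes above normoxia was not counted.

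Signals and stress genes were at the high end of the HIF targets. Vegfa, the main growth factor of blood vessels, was at 77.3 CPM after 16 h (exact Poisson interval 75.3 to 79.2) and 147 CPM after 48 h (145 to 150), against 21.1 and 37.3 CPM in normoxia. Its log2 ratio was 0.92 in hypoxia and 0.79 in normoxia. Both hypoxic libraries were thus above both normoxic ones, and day 10 above day 8 in each condition. Ier3, an early response gene of cell survival, was at 110 and 329 CPM after 16 h and 48 h, against 17.7 and 70.9 CPM in normoxia, with ratios of 1.57 and 1.95. Lox, a collagen crosslinking enzyme, had a ratio of 1.11 in hypoxia and 2.71 in normoxia, and Wsb1, a ubiquitin ligase subunit, 1.19 and 0.31. The vasodilator peptide Adm was at 18.96 and 30.4 CPM after 16 h and 48 h, against 3.56 and 5.29 CPM in normoxia.

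Glucose uptake and the oxygen sensors showed mixed values. Slc2a1, the main glucose transporter, was at 798 and 936 CPM after 16 h and 48 h, against 344 and 190 CPM in normoxia. Its ratio was 0.23, within 1.5-fold, and -0.86 with age in normoxia. Slc2a3, a second glucose transporter, was at 384 and 204 CPM, and the lactate exporter Slc16a3 at 317 and 164 CPM, both lower after 48 h and both above normoxia of their age. Of 8 tested oxygen sensing genes, 2 (25%) were higher by 1.5-fold or more and 4 (50%) lower, beside 10.1% and 39.9% of all genes. Hif1a, the alpha subunit, was at 145 and 269 CPM after 16 h and 48 h, against 182 and 203 CPM in normoxia, and its partner Arnt had a ratio of 0.69 (0.24 in normoxia). Among the prolyl hydroxylases, Egln1 was at 386 and 242 CPM, against 70.0 and 76.5 CPM in normoxia, and Egln3 at 62.2 and 65.8 CPM, against 7.24 and 11.7 CPM. Egln2, a further prolyl hydroxylase, had a ratio of -1.05, Hif3a -0.76 and Hif1an, the asparaginyl hydroxylase, -0.60, against -0.29, 1.16 and -0.02 in normoxia. Vhl, the ubiquitin ligase subunit that binds hydroxylated HIF, lay within 1.5-fold at -0.16. Epas1, the alpha subunit HIF-2, did not pass the filter, at 7.78 and 3.58 CPM.

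The 4 lowest targets were Mt2, Mt1, Gys1 and Tfrc, and Bnip3, Bnip3l and Pdk1 were also at least 1.5-fold lower. Their wider lists were not lower more often than all genes (39.9%). Autophagy and mitophagy genes had 5 of 25 lower (20%), and pyruvate dehydrogenase and its regulators 3 of 9 (33.3%). Bnip3, a mitophagy receptor, was at 266 CPM after 16 h (exact Poisson interval 262 to 269) and 127 CPM after 48 h (124 to 129), against 57.1 and 63.5 CPM in normoxia, a ratio of -1.06. Its relative Bnip3l was at 519 and 299 CPM, a ratio of -0.80, and -0.30 in normoxia. Pdk1, the kinase that shuts pyruvate dehydrogenase, was at 98.6 and 47.8 CPM, against 26.7 CPM in both normoxic libraries. For these genes the 48 h library lay between the 16 h library and normoxia. Gys1, muscle-type glycogen synthase, was at 98.4 CPM after 16 h (96.2 to 100.6) and 20.7 CPM after 48 h (19.7 to 21.8), against 18.4 and 20.9 CPM in normoxia, a ratio of -2.20. Gbe1, the glycogen branching enzyme, had -2.03, and 0.43 in normoxia. By CPM both were high in the 16 h library alone, whereas by TMM the 48 h library was also above normoxia of its age, Gys1 at 27.0 against 19.2 CPM and Gbe1 at 39.1 against 33.0 CPM. The metal-binding Mt1 and Mt2, and Tfrc, the transferrin receptor, had ratios of -2.99, -3.58 and -2.19, and were lower with age in normoxia too, at -1.64, -2.47 and -0.78.

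Promoters of 6 of these genes are shown because they span the range from lower (Bnip3, Pdk1, Gys1 and the glycolytic Aldoc) to higher or near equal (Vegfa and Slc2a1) within 1 pathway. Each is the 300 bases from 250 before to 50 after the start in RefSeq (GRCm38.p6), printed 5′ to 3′ on the gene's strand. Capitals mark the core of the hypoxia response element, ACGTG or GCGTG, on either strand (CACGT or CACGC when read on the printed strand), and overlapping matches run together.
Bnip3: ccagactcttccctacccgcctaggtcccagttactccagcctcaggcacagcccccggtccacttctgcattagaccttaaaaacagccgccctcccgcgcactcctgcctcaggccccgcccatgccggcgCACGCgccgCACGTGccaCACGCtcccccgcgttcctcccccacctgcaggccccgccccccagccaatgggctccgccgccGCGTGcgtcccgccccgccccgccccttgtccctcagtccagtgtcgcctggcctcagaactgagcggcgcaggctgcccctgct
Pdk1: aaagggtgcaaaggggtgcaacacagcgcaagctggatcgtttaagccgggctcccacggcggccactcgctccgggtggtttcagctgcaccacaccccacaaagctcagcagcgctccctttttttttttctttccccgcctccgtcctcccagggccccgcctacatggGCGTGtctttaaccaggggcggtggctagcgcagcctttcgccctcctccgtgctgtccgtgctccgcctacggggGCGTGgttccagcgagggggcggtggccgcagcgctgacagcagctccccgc
Aldoc: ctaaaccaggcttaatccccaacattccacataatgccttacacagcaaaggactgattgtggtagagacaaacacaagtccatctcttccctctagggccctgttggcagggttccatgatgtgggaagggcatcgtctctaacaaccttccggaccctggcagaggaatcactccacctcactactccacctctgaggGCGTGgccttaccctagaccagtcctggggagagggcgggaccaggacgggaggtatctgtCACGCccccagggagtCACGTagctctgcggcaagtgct
Gys1: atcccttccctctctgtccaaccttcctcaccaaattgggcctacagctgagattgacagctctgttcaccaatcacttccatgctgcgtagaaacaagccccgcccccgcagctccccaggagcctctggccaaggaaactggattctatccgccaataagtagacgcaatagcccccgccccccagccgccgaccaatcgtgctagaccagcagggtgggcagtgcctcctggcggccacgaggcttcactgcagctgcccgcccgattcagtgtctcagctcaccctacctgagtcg
Slc2a1: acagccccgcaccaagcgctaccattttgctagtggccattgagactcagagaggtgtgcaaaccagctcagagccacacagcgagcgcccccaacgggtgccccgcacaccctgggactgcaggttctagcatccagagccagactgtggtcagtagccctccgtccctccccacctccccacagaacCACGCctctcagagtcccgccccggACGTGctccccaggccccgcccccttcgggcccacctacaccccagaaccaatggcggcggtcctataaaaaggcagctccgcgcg
Vegfa: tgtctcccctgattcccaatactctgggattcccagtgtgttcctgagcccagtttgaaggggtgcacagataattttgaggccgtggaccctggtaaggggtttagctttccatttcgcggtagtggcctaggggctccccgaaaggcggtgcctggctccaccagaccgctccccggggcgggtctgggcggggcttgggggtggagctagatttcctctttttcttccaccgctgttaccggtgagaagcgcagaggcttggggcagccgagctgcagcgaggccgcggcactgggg

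These windows lie at chr7:138909457-138909756 (minus strand) for Bnip3, chr2:71872974-71873273 (plus) for Pdk1, chr11:78322823-78323122 (plus) for Aldoc, chr7:45434589-45434888 (plus) for Gys1, chr4:119108495-119108794 (plus) for Slc2a1 and chr17:46032328-46032627 (minus) for Vegfa. The core occurred 5 times in Bnip3, 2 in Pdk1, 3 in Aldoc, 2 in Slc2a1 and 0 times in Gys1 and Vegfa, so both a gene with a lower and a gene with a higher level had no match in this window. Of 27025 promoters of the same length, 11848 (43.8%) held a core, as did 66.9% of the 7031 promoters matched to tested genes. Among HIF targets it was in 38 of 45 (84.4%) matched promoters, in 15 of 18 of the members lower after 48 h and in 3 of 4 of those higher. A match is a string of letters, not a measured binding site.

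Glycolysis enzymes, which turn glucose into pyruvate and lactate, were lower after 48 h beyond the shift of all genes. Of 18 tested enzymes (2 of the 20 listed did not pass the filter), 1 was at least 1.5-fold higher and 11 lower (61.1%, against 39.9% of all genes). The median log2 ratio was -0.75 (-1.12 to -0.50) in hypoxia, -0.35 by TMM, and 0.02 with age in normoxia. In 13 of the 18 (15 by TMM) both hypoxic libraries were still above normoxia of their age. By CPM the list median against that normoxia was 1.60 after 16 h and 0.73 after 48 h, where all genes had -0.10 and -0.41.

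The steps of the pathway differed. Hk2, the inducible hexokinase of the first step, was at 234 and 103 CPM after 16 h and 48 h, against 127 and 128 CPM in normoxia. Pfkl, liver-type phosphofructokinase, was at 257 and 69.2 CPM, against 63.2 and 51.8 CPM. Aldoa, the main aldolase, was at 1863 and 1850 CPM, against 705 and 706 CPM, whereas its isoform Aldoc was at 48.4 and 8.81 CPM, against 9.50 and 12.0 CPM. So the aldolase isoforms separated after 48 h: by CPM, Aldoa was as high as after 16 h and Aldoc no higher than in normoxia of its age, and by TMM within 1.5-fold of it. Tpi1, triosephosphate isomerase, was at 1362 and 552 CPM, against 416 and 428 CPM. Pgk1, phosphoglycerate kinase, was at 2017 and 1653 CPM, against 402 and 408 CPM, with a ratio of -0.29. Ldha, which makes lactate, was at 1837 and 1082 CPM, against 544 and 436 CPM. Eno2, the neuron-type enolase, was the 1 enzyme higher, at 10.1 and 18.8 CPM, and had nearly the same ratio with age in normoxia (0.83 and 0.90).

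**Figure D2:**
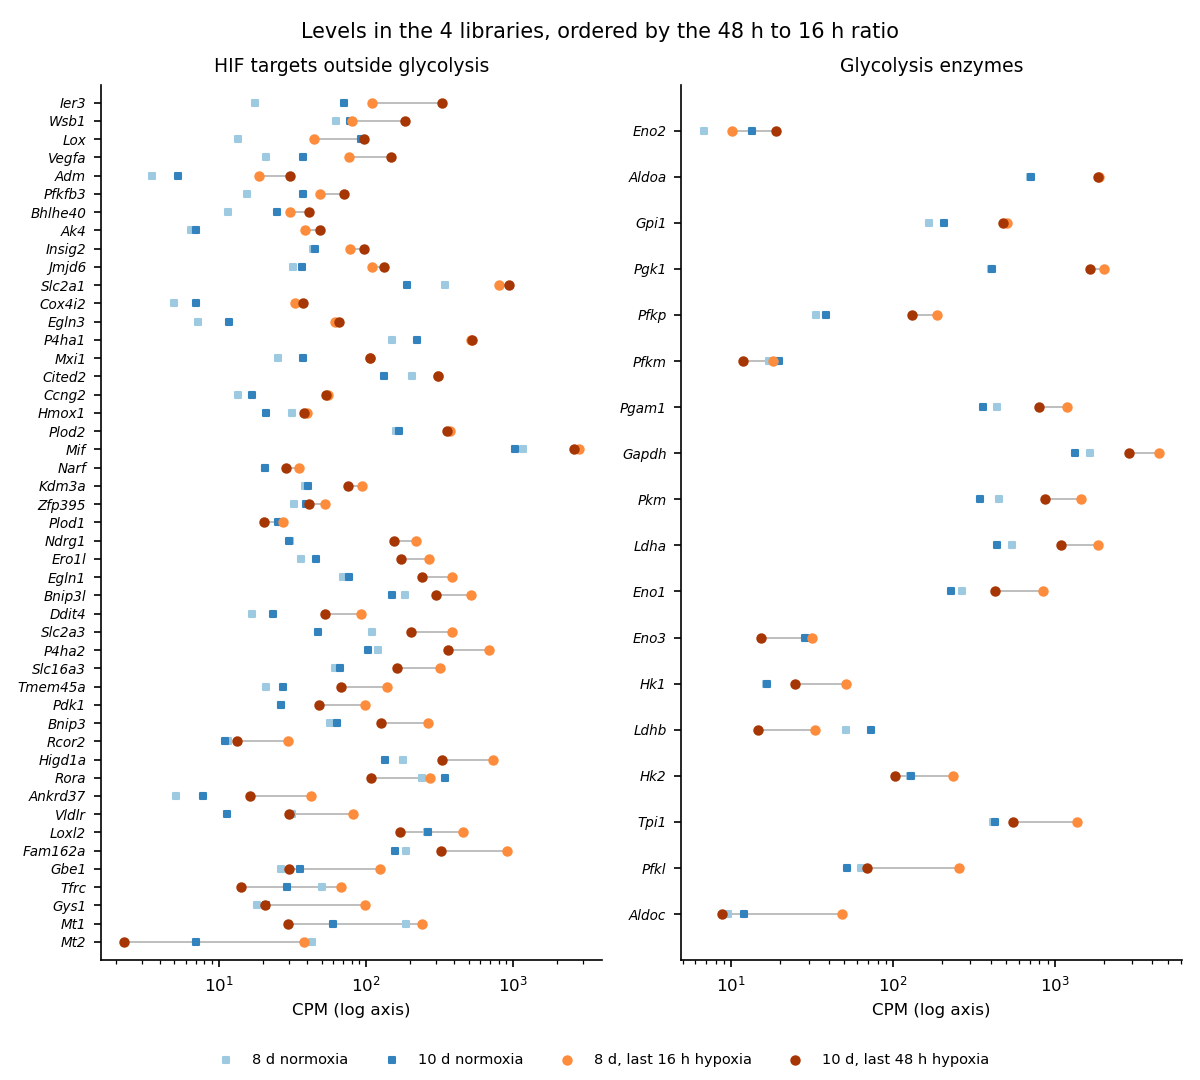
CPM (log axis) of tested HIF targets (1 is not drawn) and glycolysis enzymes in the 4 libraries, ordered by the 48 h to 16 h ratio, with a line joining the hypoxic libraries. Most hypoxic points lie right of the normoxic squares. For some genes, such as Gys1, Gbe1, Aldoc and Hk2, the 48 h point is not right of the normoxic square of its age.

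Transcripts made inside mitochondria were lower after 48 h in a larger share than all genes, while nuclear genes of oxidative metabolism differed by list. The 13 mitochondrially encoded transcripts, subunits of the respiratory chain and ATP synthase, took 2.01% of UMIs after 16 h and 1.11% after 48 h, against 3.82% and 4.05% in normoxia. Of them 0 were at least 1.5-fold higher and 10 lower (76.9%, against 39.9% of all genes). Their median was -0.74 (-0.98 to -0.55) in hypoxia and 0.18 with age in normoxia. All 13 were below normoxia of their age in both hypoxic libraries by CPM, and 11 by TMM, where mt-Co1 and mt-Nd6 were above it after 16 h. By CPM their median against that normoxia was -1.14 after 16 h and -2.02 after 48 h, where all genes had -0.10 and -0.41. mt-Atp6, of ATP synthase, was at 3018 and 1317 CPM after 16 h and 48 h, against 6659 and 7017 CPM in normoxia. mt-Nd6, the subunit transcribed from the other strand, was the 1 with a ratio above 0, at 38.7 and 43.9 CPM, and 95.2 CPM in normoxia at day 10. The share of mitochondrial UMIs was also a filter on barcodes, which left out 28 barcodes after 48 h.

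In the nucleus, 1 of 72 tested respiratory chain genes was at least 1.5-fold higher and 33 lower (45.8%, near the 39.9% of all genes), with a median of -0.55 (-0.15 by TMM) and -0.17 in normoxia. Ndufb8 and Ndufb7, of complex I, were lowest at -1.35 each, and Uqcrh, of complex III, highest at 0.73. In the citric acid cycle 0 of 16 tested genes were higher and 10 lower (62.5%), with a median of -0.64 in hypoxia and -0.06 in normoxia. The lowest member of that list, Idh1, was at 65.4 and 17.7 CPM, against 96.5 and 56.1 CPM in normoxia. It is the cytosolic isocitrate dehydrogenase and not a step of the mitochondrial cycle itself. Cs, citrate synthase, the entry enzyme of the cycle, was highest with a ratio of 0.50. Pyruvate dehydrogenase and its regulators had 0 higher and 3 lower of 9 (33.3%, below the share of all genes): Pdk1 and the pyruvate carriers Mpc2 and Mpc1, at -1.03, -0.92 and -0.75.

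Genes of DNA replication and mitosis were lower after 48 h, further than other genes and further than with age. Of 41 tested S phase genes, 3 were higher by 1.5-fold or more and 33 lower (80.5%, against 39.9% of all genes). The median was -1.43 (-1.80 to -0.85) in hypoxia and -0.39 in normoxia. Of 51 G2 and M phase genes 2 were higher and 43 lower (84.3%), with medians of -1.24 (-1.42 to -0.99) and -0.28. Mki67, the proliferation marker, was at 87.0 and 13.3 CPM after 16 h and 48 h, against 131 and 129 CPM in normoxia. Rrm2, which makes deoxynucleotides, was at 18.5 and 2.67 CPM, against 56.4 and 40.7 CPM. Both genes were lowest after 48 h and second lowest after 16 h. Tyms, thymidylate synthase, Mcm3, of the replicative helicase, and Uhrf1, of maintenance methylation, had ratios of -2.39, -2.30 and -2.29. The 3 S phase genes that were higher, Ung, Ccne1 and Cdt1, act in uracil repair, entry into S phase and origin licensing, and had 1.03, 0.76 and 0.59. Ckap2 and Psrc1, of the spindle, were the higher ones of the mitotic list, at 0.85 and 0.63.

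**Figure D3:**
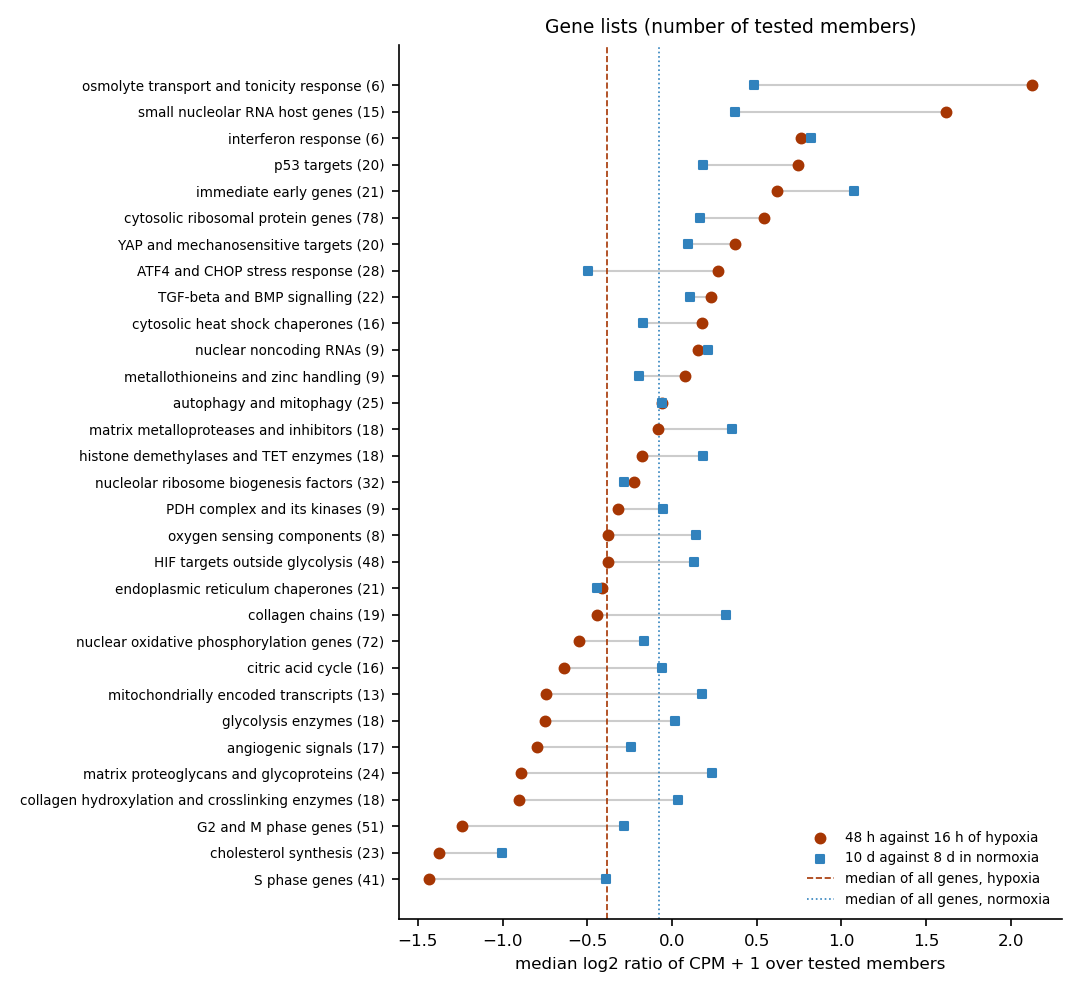
Median log2 ratio of CPM + 1 over the tested members of each gene list, for 48 h against 16 h of hypoxia (circles) and 10 d against 8 d of normoxia (squares), with the medians of all genes as vertical lines (-0.38 and -0.08). Osmolyte and small nucleolar RNA host genes lie furthest right in hypoxia, and S phase, cholesterol and G2 and M phase genes furthest left.

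Ribosomal protein genes were higher after 48 h and assembly factors mixed. In the cytosolic ribosomal protein list 33 of 78 tested members were higher by 1.5-fold or more and 1 was lower (42.3% and 1.28%, beside 10.1% and 39.9% of all genes). Their median was 0.54 (0.48 to 0.59) in hypoxia and 0.17 in normoxia. Rpl37 and Rps27 were highest at 0.97 and 0.96. The 1 lower, Rpl7l1 at -1.81, is a nucleolar relative of a ribosomal protein. Nucleolar factors of ribosome assembly had 3 higher and 11 lower of 32 (34.4%, near the share of all genes), and a median of -0.22 (0.16 by TMM), with Gnl3, nucleostemin, at 1.06 and Dkc1, of the pseudouridine synthase, at -1.08.

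Small nucleolar RNA host genes hold, in their introns, guide RNAs for ribosomal RNA modification. Of 15 tested, 10 were at least 1.5-fold higher (66.7%, against 10.1% of all genes) and 1 lower (6.67%, against 39.9%). Their median was 1.62 (0.44 to 2.10) in hypoxia and 0.37 with age in normoxia. Snhg12 was at 50.9 and 352 CPM after 16 h and 48 h, against 23.6 and 54.0 CPM in normoxia, and Snhg6 at 70.9 and 336 CPM, against 51.6 and 124 CPM. Snhg16 and Snhg15 had ratios of 2.19 and 2.10, and Snhg14, a very long imprinted transcript, -0.61. Nuclear noncoding RNAs split likewise. Malat1 took 1.02% of UMIs after 16 h and 2.72% after 48 h, against 0.987% and 1.61% in normoxia, and Neat1, the scaffold of paraspeckles, had a ratio of 1.95. Kcnq1ot1, Mirg, Airn and Rian, long transcripts of imprinted loci, had -2.02, -1.83, -1.25 and -1.10, and -0.10 to 0.22 in normoxia. Over that list 3 of 9 were higher and 4 lower (33.3% and 44.4%, beside 10.1% and 39.9% of all genes), with a median of 0.15.

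Atf4 and Ddit3, the transcription factors of the integrated stress response, were higher after 48 h, and the list around them was mixed. In the ATF4 and CHOP response 10 of 28 tested genes were higher by 1.5-fold or more and 5 lower. These were 35.7% and 17.9%, beside 10.1% and 39.9% of all genes. The list median was 0.27 (-0.24 to 0.77) in hypoxia and -0.50 in normoxia. Over the 11 members averaging at least 50 CPM it was 1.25. That average includes the 48 h library, so members high there pass more easily. Atf4 itself was at 95.5 and 274 CPM after 16 h and 48 h, against 58.2 and 74.2 CPM in normoxia. Ddit3, which encodes CHOP, was at 50.7 and 122 CPM, against 29.1 and 32.9 CPM. Both were highest after 48 h and next highest after 16 h. Atf3, a repressor induced by stress and by dissociation, was at 35.8 and 111 CPM, but at 108 CPM in normoxia at day 10 too. Of the enzymes that ATF4 induces for serine and asparagine, Shmt2, Psph and Asns had ratios of -1.29, -0.74 and -0.68, and -0.81, -0.97 and -1.74 in normoxia.

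Chaperones of the endoplasmic reticulum had 3 higher and 9 lower of 21 (14.3% and 42.9%, near the 10.1% and 39.9% of all genes), with a median of -0.41 (-0.01 by TMM) and -0.44 in normoxia. Hspa5, or BiP, its main Hsp70, was at 406 and 703 CPM, against 498 and 338 CPM, whereas Pdia6 and Calr had -1.31 and -1.11. Cytosolic heat shock chaperones had 5 higher and 2 lower of 16 (31.25% and 12.5%), with a median of 0.18. Hsf2, a heat shock factor, Hspa4 and Cryab, a small heat shock protein, had ratios of 1.49, 1.03 and 0.73, and Hsp90aa1 -0.99.

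Tonicity genes, which bring compatible solutes into cells, had the highest list median, 2.12 (0.30 to 3.76) in hypoxia against 0.48 in normoxia. Of 6 tested members (4 of the 10 listed did not pass the filter), 4 were at least 1.5-fold higher and 0 lower. These were 66.7% and 0%, beside 10.1% and 39.9% of all genes. The higher members were Slc5a3, Hspa4l, Slc38a2 and Akr1b3. Hspa4l is a chaperone, and passed the filter through the 48 h library alone. Reads of Slc5a3 and Mrps6 may have been divided between them, as stated above. Slc38a2, an amino acid transporter, was at 105 and 522 CPM after 16 h and 48 h. Akr1b3, aldose reductase, which makes sorbitol, was at 30.4 and 120 CPM. In normoxia Slc38a2 was at 84.8 and 129 CPM and Akr1b3 at 64.0 and 47.2 CPM. Nfat5, the factor that drives this programme, was at 195 and 255 CPM after 16 h and 48 h and 174 and 264 CPM in normoxia, so it did not separate the conditions at day 10. The taurine transporter Slc6a6 lay within 1.5-fold at 0.30.

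Targets of p53 had 11 higher and 0 lower of 20 (55% and 0%, beside 10.1% and 39.9% of all genes). Their median was 0.74 (0.33 to 1.21) in hypoxia and 0.18 in normoxia. Gadd45a, Gadd45b and Zmat3, of growth arrest and RNA binding, had 1.42, 2.35 and 1.39, while Bax, which permeabilizes mitochondria, had -0.58. Immediate early genes had 11 higher and 1 lower of 21 (52.4% and 4.76%). Their median, however, was 0.62 in hypoxia and 1.07 in normoxia, where 17 were higher, beside 7% of all genes. Dusp1, a MAP kinase phosphatase, was at 30.8 and 203 CPM, against 30.3 and 48.3 CPM, whereas Egr1 was at 250 and 238 CPM, against 293 and 719 CPM. These genes also respond to dissociation, and its part in the values was not tested.

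Cholesterol synthesis was lower in both comparisons. After 48 h, 0 of 23 tested genes were higher by 1.5-fold or more and 20 were lower (87.0%, against 39.9% of all genes). Their median was -1.37 (-1.84 to -0.90), and in normoxia 0 were higher and 18 lower at day 10, where 7% and 7.01% of all genes were, with a median of -1.002. Acat2, at 71.5 and 12.1 CPM after 16 h and 48 h and 86.3 and 40.5 CPM in normoxia, and Mvk, Dhcr7 and Idi1, enzymes of the same pathway, had the lowest ratios, -2.47 to -2.06. Srebf2, the transcription factor that induces them, lay within 1.5-fold at 0.20. Among zinc and metallothionein genes 0 were higher and 3 lower of 9 (33.3%, below the share of all genes). The lower ones were Mt1, Mt2 and the importer Slc39a8, and the list median was 0.08.

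Among extracellular matrix genes, proteoglycans and collagen-modifying enzymes were lower after 48 h in a larger share than all genes, and collagen chains and metalloproteases were not. Collagen chains had 2 higher and 8 lower of 19 (42.1%, near the 39.9% of all genes), with medians of -0.44 (-0.04 by TMM) and 0.32 in normoxia. Col3a1, a fibrillar collagen, was at 1969 and 807 CPM after 16 h and 48 h, against 1761 and 2188 CPM. Proteoglycans and glycoproteins had 2 higher and 17 lower of 24 (70.8%), a median of -0.89 (-1.39 to -0.31) against 0.24. Dcn, decorin, was at 293 and 99.5 CPM, against 224 and 679 CPM, so that the normoxic culture of day 10 was the highest and the hypoxic one of that day the lowest. Vcan, versican, Emilin1 and Mfap2, of elastic fibres, had ratios of -2.27, -2.17 and -1.87. Collagen-modifying enzymes had 1 higher and 11 lower of 18 (61.1%), a median of -0.90 (-1.08 to -0.19) against 0.04. Of these P4ha1 and Plod2, hydroxylases that HIF induces, lay within 1.5-fold by CPM, at 516 and 524 CPM and at 372 and 353 CPM. Loxl2 was at 454 and 170 CPM, against 262 and 264 CPM. Metalloproteases and their inhibitors had 5 higher and 5 lower of 18 (27.8% each, beside 10.1% and 39.9% of all genes) and a median of -0.08. Mmp2, Timp3 and Adamts5 had 1.29, 1.49 and 1.37, and 1.14, 0.75 and 0.68 in normoxia.

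Angiogenic signals were more often lower than higher after 48 h. Of 17 tested 3 were at least 1.5-fold higher, namely Pdgfa, Vegfa and Adm, and 10 lower. That makes 17.6% and 58.8%, beside 10.1% and 39.9% of all genes. The median was -0.80 (-1.10 to 0.34) in hypoxia, -0.41 by TMM, and -0.24 in normoxia. The interval holds the median of all genes, -0.38. Nrp1, a co-receptor of VEGF, was at 947 and 188 CPM after 16 h and 48 h, against 815 and 687 CPM. Angpt1, a ligand that stabilizes vessels, was at 131 and 24.98 CPM, against 145 and 223 CPM, and the receptors Kdr and Tek had ratios of -2.99 and -1.57, and 0.55 and -0.82 in normoxia. The endothelial marker list, which includes Kdr and Tek, summed to 248 and 68.4 CPM (263 and 228 CPM in normoxia) over 14 genes, with 0 at 0 UMIs. The 3 that passed the filter, Kdr, Tek and Egfl7, were all lower, so 2 of them are the receptors just named. Endothelial-like cells were 18 and 23 (18 and 2 in normoxia), and the part of cell number in these values was not tested.

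Marker lists describe which cells the sums came from. Of all genes tested, 10.1% were at least 1.5-fold higher and 39.9% lower. Fibroblast markers summed to 6982 CPM after 16 h and 3817 CPM after 48 h, against 7020 and 9039 CPM in normoxia, with 0 higher and 8 lower of 10 tested. Smooth muscle and myofibroblast markers summed to 10199 and 11070 CPM, against 7964 and 5363 CPM, with 3 higher (Tagln, Actg2 and Lmod1) and 0 lower of 12. Tagln, an actin-binding protein of contractile cells, was at 2045 and 3655 CPM, against 1179 and 572 CPM. Epicardial and mesothelial markers summed to 681 and 464 CPM, against 362 and 538 CPM, with 0 higher and 5 lower of 7.

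Blood and endoderm markers differed more, and most of them with age in normoxia too. Erythroid markers summed to 4617 and 37.3 CPM after 16 h and 48 h, against 4594 and 570 CPM, with all 7 tested lower. Macrophage markers summed to 50.5 and 118 CPM, against 96.9 and 682 CPM, with 4 higher and 0 lower of 7, and megakaryocyte markers to 119 and 50.8 CPM, against 137 and 49.7 CPM. Endoderm markers summed to 2092 and 963 CPM, against 1819 and 510.3 CPM, with 0 higher and 8 lower of 9 in hypoxia and likewise with age in normoxia. Cardiomyocyte markers summed to 356 and 263 CPM, against 483 and 395 CPM, with 0 higher and 2 lower of 7. Neural markers, at 59.8 and 19.1 CPM (54.0 and 37.3 CPM in normoxia), and pluripotency markers, at 45.9 and 52.5 CPM (45.3 and 63.3 CPM), had 1 tested gene each, so markers of the labelled embryonic stem cell type were low in these differentiated cultures. Every marker had a UMI in both hypoxic libraries except the neural Sox10 after 16 h and Sox1 after 48 h.

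Single cells repeated the order of the sums. Each cell was thinned to 5000 UMIs, which left out the 166 cells (4.96%) after 16 h and 619 (13.4%) after 48 h that had fewer. The median cell held 1.26% of UMIs from HIF targets after 16 h and 0.94% after 48 h, against 0.42% and 0.38% in normoxia. Its 10th and 90th percentiles were 0.82% and 1.82% after 16 h and 0.60% and 1.36% after 48 h, so the hypoxic libraries overlapped widely with each other, while 90% of the cells of each normoxic library were at or below 0.74%. For glycolysis enzymes the medians were 1.62% and 1.08%, against 0.46% and 0.44%. Mitochondrially encoded transcripts made up 1.88% and 0.56% of a median cell, against 3.96% in both normoxic libraries. For G2 and M phase genes the medians were close, at 0.12% and 0.10%, and the 90th percentile differed, at 1.06% after 16 h and 0.30% after 48 h, against 1.22% and 1.14% in normoxia. Ribosomal protein genes made up 19.7% and 30.9%. Free RNA enters such shares, and its part was not tested.

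**Figure D4:**
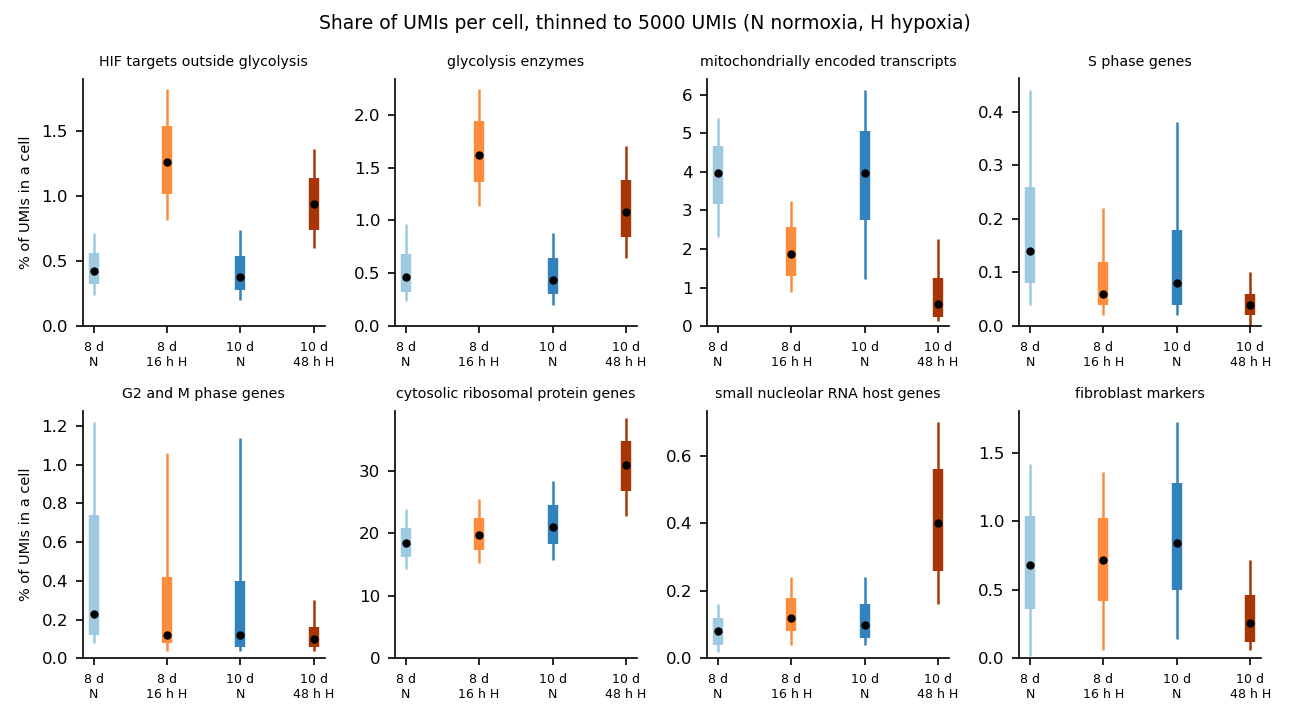
Share of a cell's UMIs (percent, cells thinned to 5000 UMIs) from 8 gene lists in the 4 libraries: dot, median, thick bar, 25th to 75th percentile, thin line, 10th to 90th. HIF and glycolysis shares are highest after 16 h, mitochondrial shares lowest after 48 h, and ribosomal and small nucleolar RNA host gene shares highest after 48 h.

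Of the clusters of cells, 6 could be named from markers. The unnamed clusters held 2889 of 3345 cells after 16 h and 4317 of 4616 after 48 h and are not compared one by one. Some were nearly confined to 1 hypoxic library: 1 held 1 cell after 16 h and 1464 after 48 h, and another 732 and 0. Sums over cells outside the named clusters therefore may not compare like cells. Of the named clusters the endoderm-like one alone had at least 50 cells in both, 194 and 61, with medians of 19831.5 and 6358 UMIs per cell. The others were macrophage-like (38 and 118 cells), erythroid-like (152 and 11), megakaryocyte-like (32 and 44), cardiomyocyte-like (22 and 42) and endothelial-like (18 and 23). These names were rebuilt from markers and are not the study's.

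Within endoderm-like cells the glycolysis, S phase, host gene and tonicity lists had the direction they had in all cells. Mitochondrially encoded transcripts had the opposite one. The median of HIF targets, which equalled that of all genes when all cells were summed, was below that of all genes here. HIF targets had 3 higher and 28 lower of 49, where 11.3% and 33% of the 8685 genes averaging 10 CPM or more over the hypoxic libraries of these cells were, with a median of -0.75, and glycolysis enzymes 2 higher and 12 lower of 18, with a median of -0.93. S phase genes had a median of -1.43, small nucleolar RNA host genes 1.07 and tonicity genes 2.23, while all genes had -0.28. Bnip3 was at 282 and 100.2 CPM in these cells after 16 h and 48 h, Gys1 at 69.7 and 22.3 CPM and Nupr1 at 4.47 and 126 CPM. Slc2a1 was at 712 and 700.3 CPM. Mitochondrially encoded transcripts took 1.55% of UMIs in endoderm-like cells after 16 h and 2.04% after 48 h, a median ratio of 0.33, whereas in cells outside the named clusters they took 2.03% and 1.05%, a median of -0.85. Smooth muscle markers had a median of 1.58 in endoderm-like cells, and took 0.249% and 0.877% of UMIs there, and their part in these values was not tested. In the cells outside the named clusters HIF targets had 6 higher and 22 lower of 48, beside 10.8% and 40.6% of all genes, and a median of -0.45.

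Genes with a long span in the annotation were lower after 48 h, a pattern looked for after the lowest genes had been seen. Genes over 500 kb (128 tested) had a median log2 ratio of -1.50 (interval over genes -1.92 to -1.20), and 85 of them (66.4%) were at least 2-fold lower, where 21.9% of all genes were. In normoxia the same genes had a median of 0.21 with age. Genes of 200 to 500 kb (468) had -0.84 in hypoxia and 0.19 in normoxia, and those of 50 to 100 kb (1460) -0.17 and 0.00. The bins below 200 kb had medians of -0.54 to -0.17 in hypoxia with no steady order, and Spearman's rho over all genes was 0.0029. Against normoxia of the same age, genes over 500 kb had medians of 0.07 after 16 h and -1.69 after 48 h. In endoderm-like cells the 111 tested genes over 500 kb had -1.16, and outside the named clusters -1.61. No source used here states how reads in introns were treated, and their part was not tested.

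**Figure D5:**
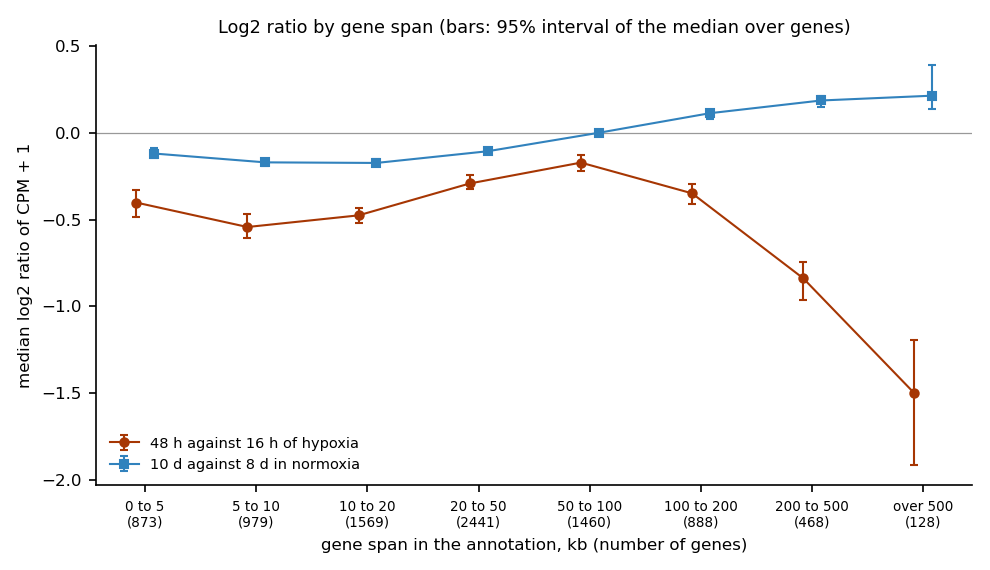
Median log2 ratio of CPM + 1 by gene span in kb, for 48 h against 16 h of hypoxia (circles) and 10 d against 8 d of normoxia (squares), with 95% intervals of the median over genes. Beyond 200 kb the hypoxic medians are -0.84 and -1.50 while the normoxic ones are 0.19 and 0.21.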

How the data were processed

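Single cells of R1 embryoid bodies were measured in 4 libraries, 1 per group. The deposited values are raw UMI counts per gene and barcode, which the authors made with Cell Ranger 7.1.0 on mm10, per the submitters' processing notes. Kept cells held 78062472 (16 h) and 76831735 UMIs (48 h). At 10 CPM counting error is then small, and differences between cultures were not measured.

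Counts were summed over cells, divided by the library total to CPM, and compared as log2 ratios of CPM + 1 without a test in Python 3.11.15 with pandas 2.3.3, numpy 2.4.6 and scipy 1.17.1. Levels have exact Poisson intervals. Ratios have exact conditional binomial intervals of the plain ratio, and list medians order statistics over members. TMM factors came from edgeR 4.0.16 (R 4.3.3). The arithmetic was tested on simulated counts. Scrublet (scanpy 1.11.5) called 0 and 1 doublets in the hypoxic libraries and 5 and 9 in the normoxic ones, too few to be working, and none were removed in the main values.

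Cells were clustered on 2000 variable genes by the Leiden method (leidenalg 0.10.2, resolution 1) in a graph of 15 neighbours built from 30 principal components, without the hypoxia, cycle, stress, host gene, ribosomal and mitochondrial genes. A cluster was named from its markers unless 90% came from 1 library. Gene spans are from GENCODE M21, which matched 32235 of 32285 IDs.

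Named genes are the 20 highest and lowest ratios (without mt-, Rps, Rpl, Gm, Rik and clone names), the 8 of largest difference from age per direction, up to 4 per direction of each of 31 gene lists and 11 marker lists, and fixed genes such as Vegfa. Gbe1, Plod1, Rora, Slc16a3 and Slc2a3 are outside this rule and were chosen after their values were seen. Some genes stand in 2 lists, such as Ier3, Atf3, Vegfa, Adm, Mt1, Mt2 and Loxl2. Some list members are counted but not reported here by name. Members and lists were chosen with earlier results of these data known. Alternatives were other scalings, pseudocounts, filters and choices of cells.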

Additional observations from a re-analysis of the deposited data

Results flagged for a closer look

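Among the genes named by rule, 9 had ratios of opposite sign in the hypoxic and normoxic comparisons, each at least 2-fold. These were the ratio of 48 h to 16 h of hypoxia and that of day 10 to day 8 in normoxia. The rule favours such genes, because it names in part those whose hypoxic ratio differs most from the ratio with age. Among all genes given a ratio, 44 were at least 2-fold lower after 48 h and at least 2-fold higher with age in normoxia. The reverse held for 2. With 1 library per group the difference between the hypoxic and normoxic ratios was not tested.

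Of the genes named by rule with opposite signs, 7 were lower after 48 h of hypoxia and higher with age in normoxia. They include surface and matrix genes. Tenm4, a teneurin adhesion protein, had log2 ratios of -3.54 in hypoxia and 1.12 in normoxia, and was at 131 and 10.4 CPM after 16 h and 48 h. Dcn, decorin, had -1.55 and 1.59, and Col6a3, a collagen VI chain, -1.15 and 1.06. Muc16, a mucin of mesothelium, had -2.50 and 1.90. The others were Plcxd3 with -3.39 and 1.96, Ppp2r2b, a phosphatase subunit, with -2.25 and 2.45, and Brinp1 with -2.15 and 2.58.

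In the other direction, Phlda2, an imprinted growth regulator, had 1.31 in hypoxia and -2.00 in normoxia, at 13.5 and 34.9 CPM after 16 h and 48 h. Col8a1, a short-chain collagen, had 1.48 and -1.27, at 21.4 and 61.6 CPM.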

How the results depend on the processing

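The 22 list medians at least 1.5-fold from equal kept their direction in all 282 values under the alternatives, and the 234 named genes at least 1.5-fold from equal in all 2906. For the scalings and the pseudocount this was largely fixed in advance. The largest shift by scaling was about 0.43, less than 1.5-fold, and a pseudocount cannot change the sign of a gene's ratio. The 22 lists include megakaryocyte and neural markers with 1 tested gene each and endothelial markers with 3. Over all lists and named genes, 501 of 541 medians and 3884 of 4015 ratios kept their direction. Genes at least 2-fold higher and lower after 48 h were 353 and 1928, and became 850 and 1036 by TMM, 935 and 970 by median-of-ratios, 840 and 1010 when centred, 210 and 889 with a pseudocount of 10 CPM, 157 and 566 of the 3423 genes of at least 50 CPM, and 650 and 3132 of 25413 without a filter. With totals that leave out ribosomal, mitochondrial and Malat1 UMIs 564 were higher. By TMM, median-of-ratios and centring, the medians were 0.0060, 0.053 and 0.0038 for HIF targets, -0.35, -0.30 and -0.36 for glycolysis, -0.36, -0.31 and -0.36 for mitochondrially encoded transcripts, -0.87, -0.82 and -0.86 for G2 and M phase genes, and 0.94, 0.99 and 0.93 for ribosomal proteins. With the reduced totals mitochondrially encoded transcripts had -0.54 and ribosomal proteins 0.75. A pseudocount of 10 CPM gave -0.75 for S phase and -0.87 for G2 and M phase genes, and -0.78 in place of -1.12 for genes over 500 kb relative to all genes. ATF4 genes of at least 50 CPM had 1.25, over fewer genes chosen in part by their level after 48 h. Choices of cells (all barcodes, at least 2000 genes, highest Scrublet scores removed, equal weights, thinning to 5000 UMIs, no named clusters) left the counts within 1.5 times. The last of these and the span bins were chosen after seeing the data. Depth limits the endoderm-like cells most, where Gys1 after 48 h rests on 18 UMIs. No paired analysis was possible because each group has 1 library.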

Other observations

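Signalling genes not described above gave mixed values. Of 22 tested genes of TGF-beta and BMP signalling, 7 were at least 1.5-fold higher after 48 h and 5 lower, where 10.1% and 39.9% of all genes were, with a median log2 ratio of 0.23 in hypoxia and 0.11 in normoxia. The BMP-induced Id1 was at 57.2 and 192 CPM after 16 h and 48 h, against 64.8 and 125 CPM in normoxia. The inhibitory Smad7 was at 72.6 and 215 CPM, against 63.6 and 51.2 CPM, and the co-repressor Skil had a ratio of 1.42. Lowest was the ligand Bmp5 with -2.68, and -2.28 in normoxia. The co-receptor Tgfbr3 had -1.91, Smad3 -1.42 and Tgfbr2 -0.73.

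Targets of YAP, a mechanosensitive co-activator, had 8 higher and 3 lower of 20. These were 40% and 15%, beside 10.1% and 39.9% of all genes. The list median was 0.37 in hypoxia and 0.10 in normoxia. Ccn2, or CTGF, was at 75.6 and 182 CPM after 16 h and 48 h, against 57.7 and 40.6 CPM in normoxia, and Lats2, the kinase that restrains YAP, had 1.32. Interferon response genes had 4 higher and 1 lower of 6 (66.7% and 16.7%). Their median was nearly the same in hypoxia and with age in normoxia, 0.76 and 0.82. Autophagy and mitophagy genes had 1 higher (Atg16l1) and 5 lower of 25 (4% and 20%), with a median of -0.06. Oxygen-dependent histone and DNA demethylases had 1 higher (Phf8) and 3 lower (Kdm4a, Tet1 and Kdm2b) of 18 (5.56% and 16.7%), with a median of -0.18.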
